A study of Mus musculus with 6 samples.

Results

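The genes described here are 36 genes of the endoplasmic reticulum (ER) folding machinery and of the unfolded protein response (UPR), chosen by symbol from a list of known pathway members and read from a table of 43548 genes. They fall into 5 roles: 7 stress sensors and transcription factors, 11 chaperones and co-chaperones, 6 disulfide isomerases and oxidases, 4 prolyl isomerases and 8 genes of ER-associated degradation. All 36 were found in the table. Of these, 33 had a mean of at least 1 FPKM (fragments scaled to transcript length and to the mapped reads of the library) over the 6 libraries and entered the test.

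Proteins that enter the secretory pathway fold in the ER with the help of chaperones, disulfide isomerases and prolyl isomerases, and those that fail to fold are moved back to the cytosol and degraded. When unfolded proteins accumulate, the kinases IRE1 (Ern1) and PERK (Eif2ak3) and the membrane-bound factor ATF6 are activated, and spliced XBP1, cleaved ATF6 and ATF4 raise the genes of this machinery. Secretory and carcinoma cells are known to depend on this system, and the level of BiP (Hspa5) is widely used to read it.

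The Met-1 line came from a late-stage mouse mammary tumor driven by the MMTV-PyMT transgene on the FVB background. Both groups were Met-1 TripZ-200c cells, which carry a lentiviral vector that expresses RFP and the precursor of miR-200c, a microRNA that represses Zeb1 and Zeb2, when doxycycline (Dox) is present. The line is 1 clone, sorted for low leakiness and intermediate induction. The MinusDox group (3 libraries) received vehicle, and the PlusDox group (3 libraries) received 1 µg/mL Dox, both for 48 h by the labels and methods, although a figure legend of the study points to cells kept in Dox for longer. Cells with the empty vector were not analysed here, so effects of Dox itself and of miR-200c cannot be told apart. Nothing in the labels ties the libraries to separate cultures or experiments beyond their replicate numbers, so p-values measure the spread between these libraries, which may be technical. In bulk RNA, a change in how many cells express a gene and a change in RNA per cell cannot be told apart either.

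Library totals ran from 800267 to 815139 FPKM. Steps between low FPKM values gave relative depths of 0.917 to 1.49 with the first MinusDox library set to 1, but absolute read numbers are unknown. Zeb1 fell with Dox from 41.8 ± 0.682 to 21.2 ± 2.05 FPKM (SD, n = 3 per group), a log2 fold change of -0.98 (limma adjusted p = 3.62e-04), and Zeb2 fell from 29.3 ± 1.43 to 8.29 ± 0.661 FPKM (SD, n = 3 per group), a log2 fold change of -1.81 (limma adjusted p = 4.48e-05). Cdh1 (E-cadherin) was below the filter, at 0.0419 to 0.0776 FPKM without Dox and 0.554 to 1.24 FPKM with Dox. Of 5 epithelial markers, Krt18 and Epcam were tested and both rose, Krt8 stayed under 1 FPKM, and Krt19 was listed at 0. Of 4 mesenchymal markers Vim fell (log2 fold change -0.35) as did Zeb1 and Zeb2, and Fn1, fitted without the placeholder values of MinusDox 3 and PlusDox 3, had 0.06. Esr1 was tested and did not pass (0.34), and Pgr was listed at 0. Of 4 leukocyte markers, Ptprc and Itgam reached at most 0.222 FPKM and the others were listed at 0. Among 3 endothelial markers, Cdh5 stood at 3.95 to 4.66 FPKM in the 6 libraries and the others at no more than 0.373 FPKM.

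The comparison asked whether the ER folding machinery and the UPR moved when miR-200c was induced. Of the 33 genes tested, 5 passed the threshold (15.2%, limma adjusted p under 0.05), beside 15.0% of all 12879 genes tested, so the share was close to that of genes in general. The 3 that rose were Ero1l, the main disulfide oxidase, Edem2, which starts the trimming of mannose from failed glycoproteins, and Hspa5 (BiP), with log2 fold changes of 0.30, 0.28 and 0.12. Over all genes tested, 7.06% rose. The 2 that fell were Edem1, a relative of Edem2, and Atf6b, a relative of ATF6, with log2 fold changes of -0.29 and -0.20, where 7.97% of all genes fell. Xbp1, Hsp90b1, Calr, Dnajb11, Creld2, Pdia4 and Pdia6 had log2 fold changes between -0.03 and 0.01, and none of them passed.

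Changes were small throughout. The log2 fold changes ran from -0.39 (Fkbp14, which did not pass) to 0.30 (Ero1l), with a median of -0.00, beside a median of 0.00 over all genes tested, and 16 were positive and 17 negative. The 95% interval of the change lay within 1.5-fold in either direction for 31 of 33 genes (93.9%), compared with 9542 of all 12879 genes tested (74.1%). The exceptions were Fkbp14 and Ero1lb, the least expressed of those tested. The median absolute log2 fold change was 0.0854 for these genes and 0.128 for all genes, and the median standard error was 0.0506 and 0.0815, respectively. These comparisons with all genes were not matched for level. The median level of the 33 genes was 61.3 FPKM, that of Herpud1, which is rank 2905 among all genes tested. What part of the differences goes with level was not tested. The values of the groups did not overlap in 13 of 33 genes (39.4%), beside 35.0% of genes with all 6 values. In 8 of the 13, namely Atf6, Creb3l2, Hyou1, Dnajc3, Ppib, Herpud1, Derl1 and Derl2, the adjusted p was 0.05 or above.

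**Figure D1:**
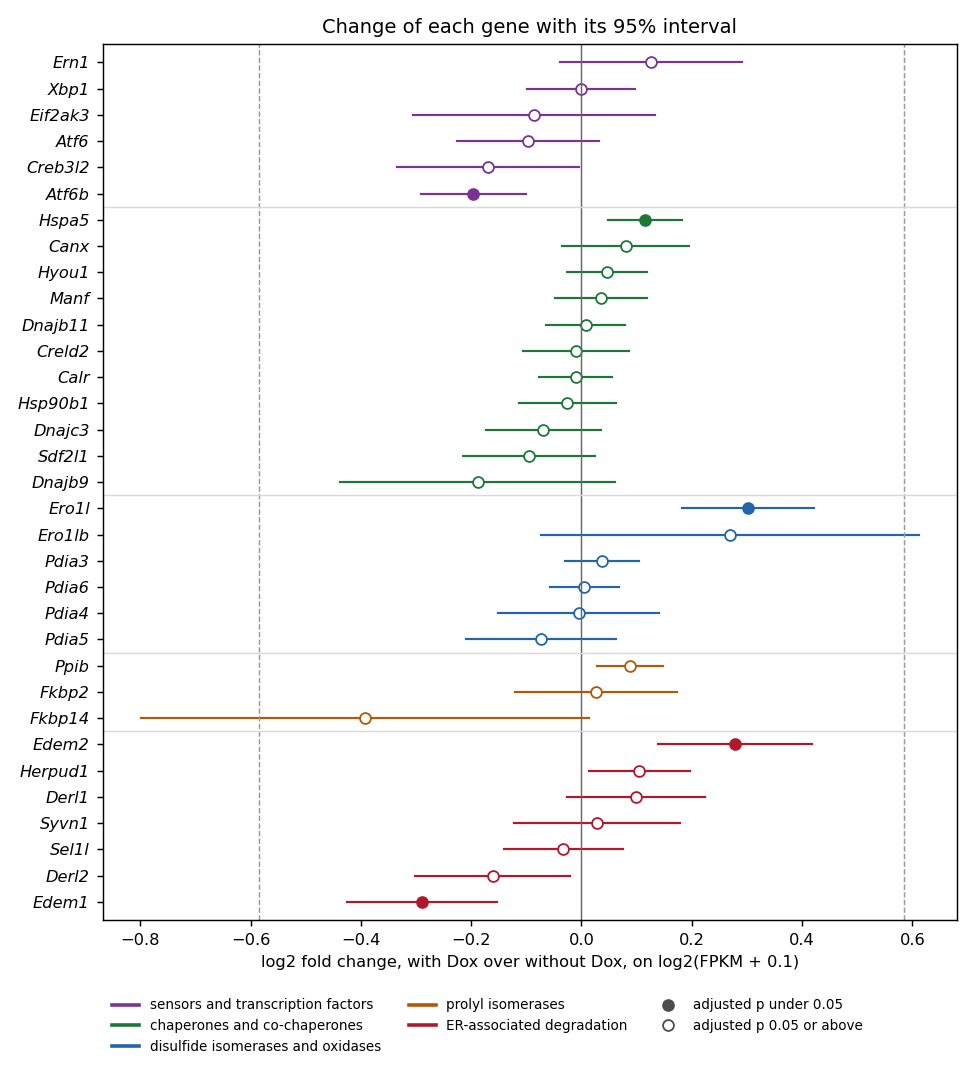
Change of each of the 33 genes tested, as the log2 fold change of PlusDox over MinusDox on the log2(FPKM + 0.1) scale, with its 95% interval from limma, grouped by role. Filled points passed an adjusted p of 0.05 and dashed lines mark a 1.5-fold change; 31 of 33 intervals lie between the dashed lines, and the 5 filled points lie on both sides of 0.

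Levels spanned a wide range, and FPKM, which is per transcript length, allows genes to be compared. Ppib was the most abundant, with a mean of 1139 FPKM over the 6 libraries, which is rank 63 among all genes tested, followed by Calr at 882 FPKM and Hspa5 at 739 FPKM. The lowest of the genes tested were Ero1lb at 5.63 FPKM and Fkbp14 at 4.65 FPKM. The chaperones had a median of 231 FPKM, whereas the sensors had a median of 33.5 FPKM and the degradation genes of 32.5 FPKM. Summed over the 36 genes, the FPKM lay between 5853 and 6038 in the MinusDox libraries and between 6025 and 6158 in the PlusDox libraries. These ranges overlapped.

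**Figure D2:**
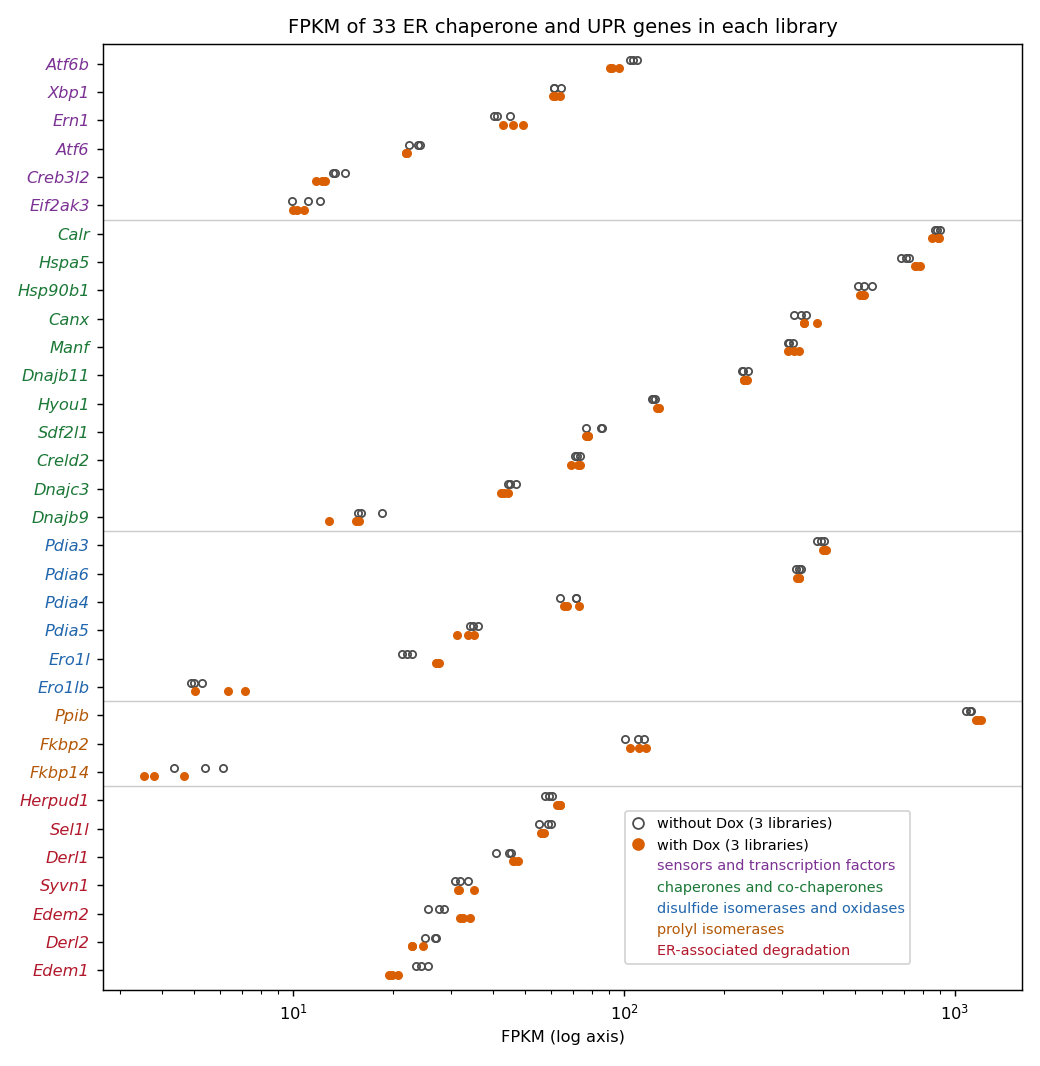
FPKM of the 33 genes tested in each of the 6 libraries on a log axis, with open circles for the 3 MinusDox and filled circles for the 3 PlusDox libraries, and symbols colored by role. Levels run from 3.54 FPKM (Fkbp14) to 1195 FPKM (Ppib), and for most genes the circles of both groups lie on or beside each other.

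A sequence shared by many of these genes is the ER stress response element (ERSE), CCAAT and CCACG separated by 9 bases of any kind, which ATF6 and XBP1 are known to bind with NF-Y. Promoter windows ran from 250 bases before to 50 bases after the annotated start (RefSeq, GRCm38.p6). They were matched by gene identifier, symbol or synonym for 30 of the 36 genes, and both strands were searched. The 6 without a window were Atf6, Creb3l1, Derl1, Fkbp10, Hyou1 and Manf. ERSE was found in 10 of 30 genes (33.3%) and in 37 of 27025 genes in the whole promoter table (0.137%). The related element ERSE-II, ATTGG and CCACG separated by 1 base, was found in 2 (6.67%), beside 12 of all genes (0.0444%), in windows without ERSE. The UPR element TGACGTGG was found in none of the 30 and in 193 of all genes (0.714%). When the last bases were dropped (CCAAT and CCA separated by 9 bases, which includes every ERSE), 15 of 30 genes (50%) held a match, beside 338 of all genes (1.25%). A match is a description of the letters, not evidence of binding, and these searches were chosen after the expression values were known.

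Hyou1 and Manf, both among the 11 chaperones, had no window and were not searched. The elements are shown because 7 of the 11 chaperones, whose levels are compared further on, hold one. Each is written 5′ to 3′ along the strand of its gene with 6 bases on either side, and capitals mark the fixed bases; CCAAT and CCACG appear as ATTGG and CGTGG where the element runs the other way.
Hspa5 (ERSE), chr2:34772019-34772049, plus strand: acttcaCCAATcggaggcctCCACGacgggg
Hsp90b1 (ERSE), chr10:86705632-86705662, minus strand: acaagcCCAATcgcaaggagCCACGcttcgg
Hsp90b1 (ERSE), chr10:86705527-86705557, minus strand: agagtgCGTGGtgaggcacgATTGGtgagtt
Calr (ERSE), chr8:84847069-84847099, minus strand: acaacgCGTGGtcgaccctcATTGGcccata
Canx (ERSE), chr11:50325794-50325824, minus strand: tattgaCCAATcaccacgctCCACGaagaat
Dnajc3 (ERSE), chr14:118937821-118937851, plus strand: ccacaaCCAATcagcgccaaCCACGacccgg
Creld2 (ERSE), chr15:88819514-88819544, plus strand: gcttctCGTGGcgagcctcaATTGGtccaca
Pdia6 (ERSE), chr12:17266485-17266515, plus strand: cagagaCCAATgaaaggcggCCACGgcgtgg
Ero1lb (ERSE), chr13:12565676-12565706, plus strand: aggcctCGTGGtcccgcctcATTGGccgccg
Syvn1 (ERSE), chr19:6046526-6046556, plus strand: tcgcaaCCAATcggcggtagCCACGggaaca
Derl3 (ERSE), chr10:75893236-75893266, plus strand: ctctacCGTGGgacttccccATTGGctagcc
Herpud1 (ERSE-II), chr8:94386371-94386393, plus strand: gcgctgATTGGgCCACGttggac
Dnajb11 (ERSE-II), chr16:22857846-22857868, plus strand: gcggcgATTGGcCCACGcctggc

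The window of Hspa5, the best known target of the response and the 1 gene with an element that passed the threshold, is shown whole. Capitals mark its ERSE, from 65 to 47 bases before the start, and the shorter match from 98 to 82 bases before it.
Hspa5 promoter window, chr2:34771840-34772139, plus strand: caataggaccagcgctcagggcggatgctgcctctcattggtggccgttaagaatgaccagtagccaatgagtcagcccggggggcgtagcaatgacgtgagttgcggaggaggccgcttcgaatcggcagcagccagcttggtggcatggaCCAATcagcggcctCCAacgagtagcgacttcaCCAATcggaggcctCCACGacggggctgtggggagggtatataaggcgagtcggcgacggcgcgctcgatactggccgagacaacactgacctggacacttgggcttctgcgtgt

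**Figure D3:**
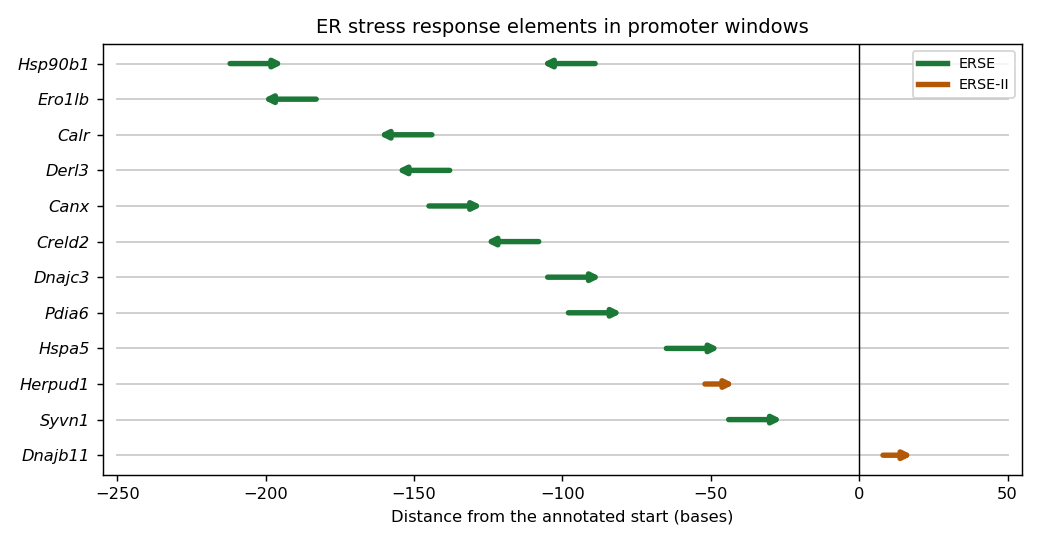
Positions of the ERSE (green) and ERSE-II (orange) matches in the promoter windows of the 12 genes that hold one, in bases from the annotated start, with arrows giving the direction of the element. Hsp90b1 holds 2, and all but the match in Dnajb11, which starts 8 bases after the start, lie upstream.

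Carrying an element did not go with a shared direction of change. Of the 12 genes with ERSE or ERSE-II, 11 were tested and Hspa5 passed. Their log2 fold changes ran from -0.07 (Dnajc3) to 0.27 (Ero1lb, which did not pass), with a median of 0.01. The 18 tested genes whose window held neither element included the other 4 that passed, and ran from -0.39 to 0.30 with a median of -0.05. Beside these 1 of 11 and 4 of 18, 15.0% of all genes tested passed. The genes with an element were also more abundant, with a median level of 231 FPKM compared with 39.2 FPKM, and the part of this in the narrower range was not tested. Outside the list, ERSE was found in 27 genes, of which 5 were tested. Among these Zfp57 rose (log2 fold change 0.33, limma adjusted p = 0.0373) and none fell, where 7.06% of all genes rose and 7.97% fell.

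Among the sensors and transcription factors, 1 of 6 tested passed, beside 15.0% of all genes tested. Log2 fold changes were negative in 5 of 6, beside 6338 of all 12879 genes tested. The value of Xbp1 was near 0 and turned positive when libraries were scaled to the same median. The median was -0.09. Atf6b (ENSMUSG00000015461, chr17:34647146-34655074 on the plus strand of GRCm38), the most abundant of them, was at 109, 104 and 106 FPKM in the MinusDox libraries and at 90.5, 96.5 and 91.8 FPKM in the PlusDox libraries. The PlusDox libraries were all lower and the groups did not overlap. The log2 fold change was -0.20 (SE 0.0402, limma adjusted p = 0.0191). The call was lost without MinusDox 1, MinusDox 3, PlusDox 1 or PlusDox 3 (adjusted p from 0.0538 to 0.0731), with the same direction in all 6 fits, and without the variance trend (0.0534).

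Atf6 itself, which encodes the better known member of the pair, was at 23.9, 22.4 and 24.2 FPKM in the MinusDox and at 21.9, 21.9 and 22.1 FPKM in the PlusDox libraries. Its PlusDox values were all slightly lower, but the log2 fold change of -0.10 did not pass (SE 0.0544, limma adjusted p = 0.292). Within each library Atf6b stood 4.37 to 4.65 times as high as Atf6 without Dox and 4.13 to 4.42 times with Dox, ranges that overlapped. This ratio and those given further on were picked after the values were seen.

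Xbp1 (ENSMUSG00000020484, chr11:5520659-5525893 on the plus strand of GRCm38) encodes the transcription factor made from the mRNA that IRE1 splices. It was at 64.3, 61.2 and 61.4 FPKM in the MinusDox and at 61.0, 61.8 and 63.9 FPKM in the PlusDox libraries. The groups lay on top of each other, with a log2 fold change of -0.00 (95% interval -0.10 to 0.10, limma adjusted p = 0.988). The gene total does not separate spliced from unspliced mRNA.

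Ern1, which encodes IRE1 itself, was at 45.3, 40.5 and 41.2 FPKM in the MinusDox and at 42.9, 49.6 and 46.1 FPKM in the PlusDox libraries, overlapping groups with a log2 fold change of 0.13 (limma adjusted p = 0.291). Eif2ak3, which encodes PERK, was at 11.1, 9.88 and 12.03 FPKM in the MinusDox and at 9.96, 10.8 and 10.3 FPKM in the PlusDox libraries. These groups overlapped as well, with a log2 fold change of -0.09 (limma adjusted p = 0.603). Eif2ak3 shares 10.8% of its longest transcript with the annotated gene Gm43292 on the opposite strand, and whether the counting used strand is not given in the sources used here.

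The last members of this role are ER-bound relatives of ATF6. Creb3l2 was at 13.2, 14.4 and 13.4 FPKM in the MinusDox and at 12.4, 11.7 and 12.2 FPKM in the PlusDox libraries. All 3 PlusDox values were the lower ones, and the log2 fold change of -0.17 did not pass (limma adjusted p = 0.161). Creb3l1 was below the filter, at 1.196, 0.671 and 0.991 FPKM in the MinusDox and at 0.6002, 0.632 and 0.523 FPKM in the PlusDox libraries. Its PlusDox values were also the lower ones, and in the fit without the filter its log2 fold change was -0.59 (limma adjusted p = 0.354). Summed over the role, FPKM was 253 to 268 without Dox and 239 to 253 with Dox, with the ranges just apart at 253.2 and 252.9. The mean of this sum was 260 without Dox and 246 with Dox, and that of Atf6b alone was 106 and 92.9 FPKM. The summed FPKM of the prolyl isomerases was also apart, in the other direction. It was 1194 to 1232 without Dox and 1271 to 1315 with Dox. The mean of this sum was 1218 without Dox and 1288 with Dox. Most of it was Ppib, which did not pass, with a mean of 1104 and 1173.5 FPKM.

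Of the 11 chaperones and co-chaperones, 1 rose, none fell and 10 did not pass, where 7.06% of all genes rose and 7.97% fell. The median log2 fold change of the 11 was -0.01. Hspa5 (ENSMUSG00000026864, chr2:34771970-34777547 on the plus strand of GRCm38) encodes BiP, the Hsp70 of the ER lumen that also holds the sensors inactive. It was at 713, 689 and 726 FPKM in the MinusDox libraries and at 783, 763 and 758 FPKM in the PlusDox libraries. All 3 PlusDox values lay above the highest MinusDox value, a mean of 768 ± 13.5 compared with 709 ± 18.8 FPKM (SD, n = 3 per group). The rise of 8.31% (log2 fold change 0.12, SE 0.0287, limma adjusted p = 0.0383) was the smallest of the 5 that passed. It was called in only 1 of 6 fits with a library left out, the one without MinusDox 3, and the adjusted p was 0.0906 without MinusDox 1, 0.113 without MinusDox 2, 0.107 without PlusDox 1, 0.0770 without PlusDox 2 and 0.0876 without PlusDox 3. It also did not pass without the filter (0.089), with quantile normalization (0.0621), without the variance trend (0.151) or in an unmoderated linear model (0.081). Its direction was the same throughout.

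Calr encodes calreticulin, a lectin chaperone that binds glycoproteins and calcium, and was the most abundant of the chaperones. It was at 900.1, 872 and 882 FPKM in the MinusDox and at 897, 887 and 852 FPKM in the PlusDox libraries, overlapping groups with a log2 fold change of -0.01 (95% interval -0.08 to 0.06, limma adjusted p = 0.846). Its membrane-bound partner Canx (calnexin) had a log2 fold change of 0.08 (limma adjusted p = 0.336). Hsp90b1, which encodes the Hsp90 of the ER, shares 13.2% of its longest transcript with 1810014B01Rik. Its values of 510.1 to 559 FPKM without Dox covered those with Dox, 515 to 529 FPKM, and the log2 fold change was -0.03 (limma adjusted p = 0.699). As a description, Hspa5 stood 1.30 to 1.35 times as high as Hsp90b1 within the MinusDox libraries and 1.45 to 1.48 times within the PlusDox libraries.

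Hyou1, a large Hsp70 relative that exchanges nucleotide on BiP, was higher in all 3 PlusDox libraries (126 to 128 FPKM) than in the MinusDox libraries (121 to 124 FPKM), and its log2 fold change of 0.05 did not pass. Of the J-domain partners of BiP, Dnajb11 had a log2 fold change of 0.01, Dnajc3 of -0.07 and Dnajb9, which also curbs IRE1, of -0.19 (95% interval -0.44 to 0.06). None passed. Sdf2l1, which works with Dnajb11, had -0.10, and the stress-induced secreted or resident proteins Manf and Creld2 had 0.04 and -0.01. Adjusted p-values of the 10 chaperone genes that did not pass ran from 0.265 (Sdf2l1) to 0.905 (Creld2).

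In the disulfide pathway, 1 of 6 genes rose, none fell and 5 did not pass, where 7.06% of all genes rose and 7.97% fell. The median log2 fold change of the 6 was 0.02. Ero1l (ENSMUSG00000021831, chr14:45283087-45318771 on the minus strand of GRCm38) encodes the oxidase that passes electrons from the isomerases to oxygen and is known to respond to hypoxia as well as ER stress. It was at 21.4, 22.1 and 22.8 FPKM in the MinusDox libraries and at 27.0, 27.2 and 27.5 FPKM in the PlusDox libraries. The groups were far apart relative to their spread, at 22.1 ± 0.714 and 27.2 ± 0.211 FPKM (SD, n = 3 per group). The rise of 23.2% (log2 fold change 0.30, SE 0.0508, limma adjusted p = 0.00946) passed in all 15 alternatives, including the 6 with a library left out, with an adjusted p of at most 0.0436. Ero1l was the only member for which this held.

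The second oxidase, Ero1lb, was at 4.92, 5.005 and 5.28 FPKM in the MinusDox and at 5.04, 6.35 and 7.16 FPKM in the PlusDox libraries. PlusDox 1 lay among the MinusDox libraries, and the log2 fold change of 0.27 did not pass (95% interval -0.07 to 0.61, limma adjusted p = 0.275). Ero1lb shares 21.7% of its longest transcript with Gm18562. Among the isomerases, Pdia3, which pairs with calreticulin and calnexin, was the most abundant, at 383, 394 and 401 FPKM in the MinusDox and at 408, 401 and 399 FPKM in the PlusDox libraries. The groups overlapped, with a log2 fold change of 0.04 (limma adjusted p = 0.440). Pdia4, Pdia5 and Pdia6 had log2 fold changes of -0.01, -0.07 and 0.00, and the intervals of the 4 isomerases lay between -0.21 and 0.14.

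None of the 3 prolyl isomerases tested passed in limma, where 15.0% of all genes did, or in the unmoderated linear model. The median log2 fold change of the 3 was 0.03. Of these, 1 had an unadjusted p under 0.05 (Ppib), a threshold at which genes in general were not counted. Ppib encodes cyclophilin B, an abundant isomerase of the ER lumen that acts on collagen and other clients. It was at 1112, 1079.9 and 1121 FPKM in the MinusDox and at 1169.7, 1195 and 1155 FPKM in the PlusDox libraries. All PlusDox values were higher, and the log2 fold change of 0.09 narrowly missed the threshold (SE 0.0253, limma adjusted p = 0.0615), passing in 1 of 15 alternatives, the scaling to the same median (limma adjusted p = 0.0356). Ppib shares 25% of its longest transcript with Snx22 on the opposite strand. Fkbp2 had a log2 fold change of 0.03, and Fkbp14, another collagen-binding isomerase, was at 3.54 to 4.66 FPKM with Dox and 4.35 to 6.11 FPKM without, with a log2 fold change of -0.39 (95% interval -0.80 to 0.01, limma adjusted p = 0.185). Fkbp10 was below the filter, listed at 0 in 4 libraries and at 0.139 and 0.0218 FPKM in PlusDox 1 and PlusDox 2.

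Of the genes of ER-associated degradation, 7 were tested, with a median log2 fold change of 0.03. Of the 7, 5 did not pass, 1 rose and 1 fell, where 7.06% of all genes rose and 7.97% fell. Both genes of this role that passed belong to the EDEM family, which marks misfolded glycoproteins for export from the ER. Edem2 (ENSMUSG00000038312, chr2:155701677-155729475 on the minus strand of GRCm38) was at 25.5, 27.5 and 28.4 FPKM in the MinusDox and at 32.7, 32.0 and 34.1 FPKM in the PlusDox libraries. All PlusDox values were higher, and the log2 fold change was 0.28 (SE 0.0590, limma adjusted p = 0.0217). Edem1 (ENSMUSG00000030104, chr6:108828641-108859356 on the plus strand of GRCm38) was at 25.5, 23.5 and 24.3 FPKM in the MinusDox and at 19.5, 20.7 and 19.8 FPKM in the PlusDox libraries. Here all PlusDox values were lower, with a log2 fold change of -0.29 (SE 0.0576, limma adjusted p = 0.0175).

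The members of this pair thus moved in opposite directions. Within each library Edem2 stood 1.00, 1.17 and 1.17 times as high as Edem1 without Dox, and 1.67, 1.55 and 1.72 times as high with Dox. Each of the 2 calls depended on the libraries used. With a library left out, Edem2 passed without MinusDox 3 alone, and its adjusted p in the other 5 fits was 0.0516 to 0.0820, the highest without PlusDox 3. Edem1 passed without MinusDox 2 and without PlusDox 2, and its adjusted p was 0.0524 without MinusDox 1, 0.0508 without MinusDox 3, 0.0577 without PlusDox 1 and 0.0639 without PlusDox 3. Edem2 also did not pass in the unmoderated linear model (adjusted p = 0.0573). The directions were the same in all 15 alternatives.

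**Figure D4:**
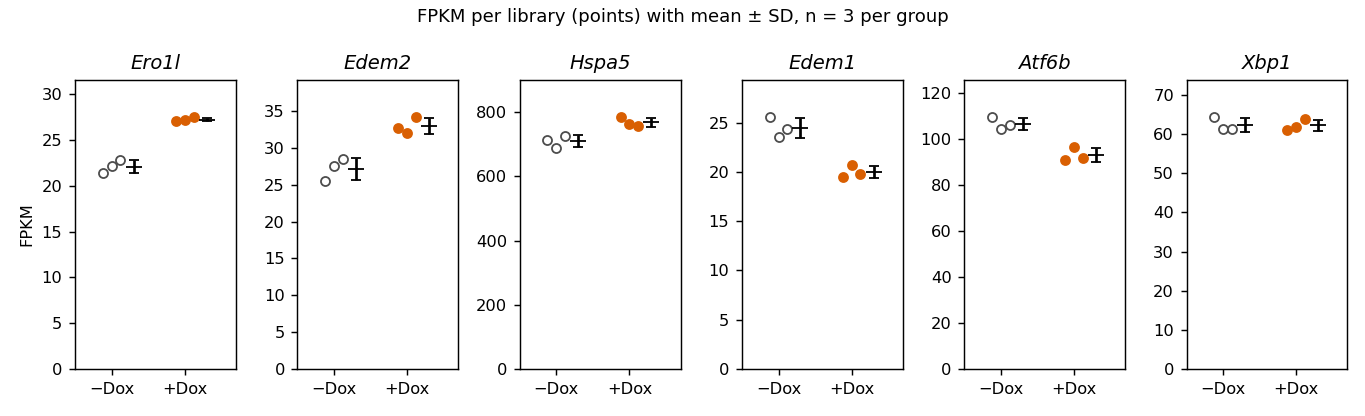
FPKM in each library for the 5 genes that passed the threshold and for Xbp1, with MinusDox libraries as open and PlusDox libraries as filled circles in the order of their numbers and the mean ± SD beside them (n = 3 per group); each axis starts at 0. The groups are apart for Ero1l, Edem2, Hspa5, Edem1 and Atf6b, by 8.31% (Hspa5) to 23.2% (Ero1l) of the MinusDox level, and overlap for Xbp1.

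The ubiquitin ligase complex that receives these substrates showed no member past the threshold. Syvn1, the ligase, had a log2 fold change of 0.03, and Sel1l, its adaptor, of -0.03 (limma adjusted p = 0.815 and 0.688). Herpud1, a strongly stress-inducible part of the complex that carries ERSE-II, was the most abundant of the role, at 59.3, 57.5 and 60.3 FPKM in the MinusDox and at 62.7, 63.8 and 63.9 FPKM in the PlusDox libraries. Its PlusDox values were all higher, and the log2 fold change of 0.11 did not pass (limma adjusted p = 0.122). The derlins are channel components: Derl1 (0.10, 20.0% of its longest transcript shared with Gm35638) and Derl2 (-0.16) had groups apart in opposite directions, and neither passed (limma adjusted p = 0.269 and 0.125). Derl3, which carries ERSE, was listed at 0 in all 6 libraries.

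The induced microRNA was also compared with the 3′ UTRs of these genes. Its mature sequence (RefSeq, GRCm38.p6) is shown with the seed, bases 2 to 8, in capitals, and a seed match is the letters CAGTATT in the longest annotated 3′ UTR of a gene (GENCODE, GRCm38), given with 8 bases on either side. Other members of the miR-200 family were not searched for.
mmu-miR-200c-3p, chr6:124718324-124718346, minus strand: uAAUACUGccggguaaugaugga
Ero1l, site at base 1339 of a 3′ UTR of 2941 bases: actgagagCAGTATTtgatgtgg
Ero1l, site at base 2555 of a 3′ UTR of 2941 bases: tgcaaacaCAGTATTtgcattga
Dnajc3, site at base 384 of a 3′ UTR of 3513 bases: ttgtgtctCAGTATTcttaaagg
Dnajc3, site at base 1048 of a 3′ UTR of 3513 bases: gtactagtCAGTATTtgtatact
Manf, site at base 296 of a 3′ UTR of 1626 bases: agctggcaCAGTATTctgtccta
Syvn1, site at base 360 of a 3′ UTR of 1055 bases: gtgccgaaCAGTATTagcttctg
Sel1l, site at base 1532 of a 3′ UTR of 3801 bases: tgtgctcaCAGTATTatgggaaa

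A match was present in 5 of the 33 genes tested (15.2%), beside 1823 of the 10812 genes tested that had an annotated 3′ UTR (16.9%). Over all genes, 16.4% of those with a match fell, compared with 7.40% of those without. In Zeb1 and Zeb2, 5 matches each were found. None of the 5 members with a match fell. Ero1l, which holds 2, rose, whereas Dnajc3, also with 2, Manf, Syvn1 and Sel1l did not pass, and the median log2 fold change of the 5 was 0.03. The 2 members that fell, Edem1 and Atf6b, held no match. The search was chosen after the values were seen, and UTR length was not matched (median 1260 bases for these genes and 1386 for all).

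Further genes of the pathway, in 9 lists of 126 genes, were read from the same fit. Of 117 tested, 9 rose and 10 fell (16.2%, beside 15.0% of all genes), with a median log2 fold change of 0.02. In the PERK and ATF4 branch 3 of 8 tested rose and none fell, with a median of 0.18. The list was chosen with earlier results of these libraries known, so its count is no independent evidence of a direction. Those that rose were Atf4, whose product is translated when eIF2α is phosphorylated (341 ± 5.72 to 381 ± 2.55 FPKM, log2 fold change 0.16), Ppp1r15a (GADD34), which reverses that phosphorylation (21.8 ± 0.852 to 31.3 ± 4.49 FPKM, 0.51), and Trib3, a target of ATF4 (44.2 ± 2.93 to 53.5 ± 0.589 FPKM, 0.28; SD, n = 3 per group). Their limma adjusted p-values were 0.00829, 0.0165 and 0.0179. Ddit3 (CHOP) had a log2 fold change of -0.17 and did not pass (limma adjusted p = 0.0629). Nupr1 (0.21), Chac1 (0.18), Sesn2 (0.17) and Atf5 (0.04) had positive values and did not pass either (limma adjusted p from 0.0506 to 0.502). The call of Atf4 was lost without the variance trend (limma adjusted p = 0.0542). Without MinusDox 1 the call of Ppp1r15a was lost, and that of Trib3 without MinusDox 3 or any 1 of the PlusDox libraries, with adjusted p-values of up to 0.0837 and 0.0630 over all alternatives.

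Further ER-resident genes were read against the 7.97% of all genes that fell and the 7.06% that rose. Of 15 calcium-binding and other lumenal chaperones tested, 3 fell and none rose: Cnpy4 (-0.30), Calu (-0.21) and Cnpy3 (-0.15, lost when any library was left out). Of 13 further thioredoxin-fold genes, 3 fell and none rose: Tmx4 (-0.55), Txndc12 (-0.37) and P4hb (-0.11), the classical protein disulfide isomerase, which was lost without MinusDox 1, MinusDox 2, PlusDox 2 or PlusDox 3 (limma adjusted p of up to 0.137 over all alternatives). Fkbp7 fell among 3 further prolyl isomerases, from 12.4 ± 2.17 to 6.45 ± 0.773 FPKM (SD, n = 3 per group), a log2 fold change of -0.92 (limma adjusted p = 0.00888, and 0.0602 in the unmoderated linear model). Of 15 genes of N-glycosylation and glucose trimming, Uggt1 (-0.15), which senses misfolded glycoproteins, and Ganab (-0.13) fell and none rose. Of 24 genes of the translocon and signal peptide processing, Ssr4 (0.20) and Ssr2 (0.16) rose and none fell. These 4 calls were each lost in at least 4 of 6 fits with a library left out, with adjusted p-values of up to 0.127.

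None of the 18 further genes of ER-associated degradation and none of the 7 that process sensors or retrieve ER proteins passed in limma. In these lists 4 and 2 genes had an unadjusted p under 0.05, and 1 of each passed in the unmoderated linear model. The share of all genes under that unadjusted threshold was not counted, but it was at least the 15.0% that passed after adjustment. In the unmoderated model 598 of all genes rose and 692 fell. Of 14 cytosolic and mitochondrial chaperones, 4 rose and 1 fell, where 7.06% of all genes rose and 7.97% fell. This list was also chosen with earlier results of these libraries known, so its count is no independent evidence of a direction. The 4 that rose were the mitochondrial chaperonin Hspd1 (log2 fold change 0.26) and Hspa9 (0.13) and the cytosolic Hsp90ab1 (0.15) and Hsp90aa1 (0.15). The stress-inducible Hspa1a fell (-0.69, limma adjusted p = 0.0112). Hspa1a shares 74.0% of its longest transcript with Hspa1b, which had a log2 fold change of -0.38 (limma adjusted p = 0.0531), and Hspd1 and Hsp90aa1 share 71.1% and 68.7% with pseudogenes, so these values are uncertain. The calls of Hsp90aa1 and Hspa9 were lost in 5 and 4 of the 6 fits with a library left out, with adjusted p-values of up to 0.116 and 0.0940 over all alternatives. That of Hsp90ab1 was lost with quantile normalization and without the variance trend (limma adjusted p of up to 0.433).

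**Figure D5:**
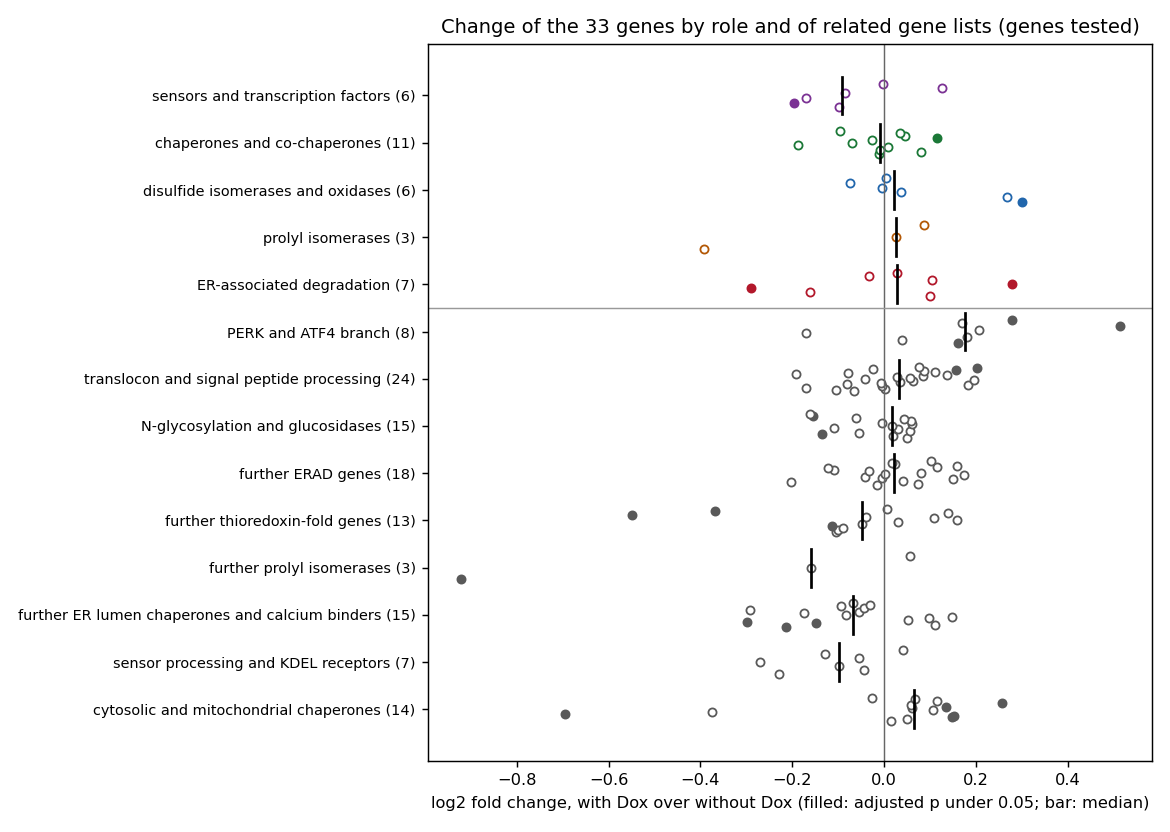
Log2 fold change of PlusDox over MinusDox for each gene tested, in the 5 roles (colored, above the line) and in 9 lists of related genes (gray, below it), with the number tested in parentheses, filled points for an adjusted p under 0.05 and a bar at the median. The medians of the 5 roles lie between -0.09 and 0.03, and that of the PERK and ATF4 branch at 0.18.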

How the data were processed

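RNA for 3 MinusDox and 3 PlusDox libraries was extracted with TRIzol, made into TruSeq Stranded libraries and sequenced as 50 bp single reads. The authors aligned the reads with gSNAP and estimated gene levels with Cufflinks, and the deposited values are FPKM (mouse build GRCm38.p6 per the labels; versions, and whether counting used strand, are not given in the sources used here). An FVB/NJ assembly is named in the methods too. FPKM removes depth and length, so low genes are less precise and read numbers are unknown. The deposited group means, fold changes, p-values and q-values of the authors' own comparison were not used.

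The table has 43611 rows; repeated identifiers were reduced to their highest row by mean (63 rows dropped), and 6 placeholder values were set to missing, none in the genes described. The test was limma 3.58.1 (R 4.3.3; lmFit, eBayes with trend) on log2(FPKM + 0.1), for the 12879 genes whose mean reached 1 FPKM, with Benjamini-Hochberg adjustment over all of them and a threshold of 0.05. Fold changes on this scale understate changes of low genes. Genes below the filter were read from the same fit without it. The procedure was tested on simulated data with 200 genes changed by 1 log2 unit. Changes of the genes described were all smaller, so that test does not cover them. Libraries with the same replicate number did not deviate together across genes (correlations of deviations 0.0287, 0.0359 and -0.00759), so no pairing was used. Shared sequence was searched with BLAST 2.17.0.

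The genes, roles, lists and tests were chosen with earlier results of these data known. Genes that passed, all sensors and the most abundant gene of each role are given by library. In the further lists up to 4 called genes with the largest change are named. Hspa9, Hspa1b, Ddit3 and the other tested genes of the PERK and ATF4 branch that did not pass were named after their values were seen. Alternatives were pseudocounts of 1 and 0.01, a minimum mean of 5 FPKM or none, scaling to the same median, quantile normalization, no variance trend, an unmoderated linear model on log2(FPKM + 1), the replicate number as a block and each library left out in turn, 15 in all, and a minimum change of 1.5-fold.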

Additional observations from a re-analysis of the deposited data

How the results depend on the processing

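Over the 33 genes and 15 alternatives, the direction and the side of the threshold were kept in 444 of 494 values. A call was lost in 27, gained in 1 and the direction turned in 22. The 9 genes that turned had main log2 fold changes of at most 0.0281 in size and passed in no fit. With all libraries kept, Xbp1 turned with scaling to the same median (2.148e-05), and Dnajb11 (-0.00754) and Pdia6 (-0.0221) with quantile normalization. With 1 library left out, the log2 fold changes ran from -0.0204 to 0.0210 for Xbp1, -0.0568 to 0.00951 for Hsp90b1, -0.0251 to 0.0117 for Calr, -0.00638 to 0.0261 for Dnajb11, -0.0273 to 0.0167 for Creld2, -0.0572 to 0.0253 for Pdia4, -0.00805 to 0.0163 for Pdia6, -0.0255 to 0.0700 for Fkbp2 and -0.0211 to 0.0648 for Syvn1.

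The unmoderated model left 598 of all genes higher and 1 of the genes described, Ero1l. None of the 33 genes tested changed by 1.5-fold, so 0 rose and 0 fell by that measure. Without the variance trend 1 fell (Edem1), and in the related lists 3 rose and 6 fell. With the replicate number as a block 0 fell (limma adjusted p = 0.0606 for Edem1 and 0.0630 for Atf6b) and Hspa5 did not pass (0.0787), whereas Ero1l (0.0364) and Edem2 (0.0442) did. With 1 library left out, 479 to 688 of all genes rose and 590 to 709 fell, as fewer samples entered the fit. Of the genes described, 1 to 3 rose and 0 to 2 fell, and in the related lists 4 to 8 rose and 7 fell. Role medians then ran from -0.131 to -0.0470 for sensors, -0.02 to 0.01 for chaperones, 0.01 to 0.04 for the disulfide pathway, -0.03 to 0.07 for prolyl isomerases and -0.02 to 0.06 for degradation. Of the 19 related genes called, 6 passed in every alternative (Txndc12, Tmx4, Cnpy4, Calu, Hspa1a and Hspd1).

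With 3 libraries per group, small changes are near the limit of the test, and read numbers are unknown. Spliced Xbp1, translation, protein levels and sensor activation were not measured.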
